A study of Mus musculus with 12 samples.

Results

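The genes examined were 8 genes of the cholesterol synthesis pathway: the regulators Srebf2 and Insig1 and the enzymes Hmgcs1, Idi1, Fdft1, Sqle, Lss and Cyp51. They were chosen by name as targets of the transcription factor SREBP2, and all 8 were found among 54119 genes with summed counts and among the 19150 genes that passed the filter on low counts. The set is named for cholesterol synthesis and uptake, but no uptake receptor is among the 8, so uptake genes are described from a separate list. RNA was measured in cerebral vessels, isolated from mouse brain, in 12 libraries of 4 groups with 3 libraries each. All mice were wild-type C57BL6, 2 to 3 months old, and each library pooled the vessels of 1 male and 1 female. The groups received PBS, or lipopolysaccharide (LPS, a bacterial cell wall component that sets off systemic inflammation) at 10 mg/kg into the peritoneum for 15 min, 30 min or 4 h. The sources used here do not state the time of day of the injections or how long after PBS the control mice were killed. Depth was 18.3 to 25.9 M fragments per library, and the 8 genes held between 198 (Lss) and 4529 (Srebf2) fragments in a library.

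Cells make cholesterol from acetyl-CoA by way of mevalonate, isoprenoids, squalene and lanosterol. When sterols are scarce in the endoplasmic reticulum, the SREBP2 precursor travels with its escort SCAP to the Golgi, is cut there, and its released part switches on the genes of synthesis and uptake. When sterols are plentiful, INSIG proteins hold SCAP back. The brain makes nearly all of its own cholesterol, because lipoprotein particles hardly cross the blood-brain barrier, whose endothelial cells face both the plasma and the brain.

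In the data, the fold-limit test asked whether a gene differs by more than 1.5-fold (a log2 of 0.58). None of the 8 genes passed it after 15 min or 30 min of LPS, beside 4.25% and 4.62% of all genes. After 4 h, when 33.0% of all genes passed (19.1% as higher), 5 of the 8 did, all higher than in PBS. These 5 were Cyp51 (2.54-fold), Idi1 (2.45-fold), Srebf2 (1.76-fold), Hmgcs1 (1.64-fold) and Insig1 (1.62-fold). Fdft1, Sqle and Lss did not pass, and in this fit Lss was the 1 gene with a lower level at LPS 4 h than in PBS. The direction of Lss was not settled, as a fit on protein-coding transcripts alone gave a log2 fold change of 0.46. These calls rest on the scaling of the libraries by trimmed means (TMM). When libraries were scaled by their totals alone, the median of all genes moved down by 0.70 on the log2 scale. Of the 8 genes 0 then passed as higher and 1 (Lss) as lower, and Insig1, Fdft1 and Sqle had values below 0. Of all 19150 genes tested 10523 passed under that scaling, 18.2% of these as higher, so most genes that passed were lower.

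The promoters of the 5 genes that passed the test at LPS 4 h are shown because SREBP2 acts at sterol regulatory elements close to the start site, usually next to a CCAAT box bound by NF-Y. Promoter windows came from the RefSeq annotation of GRCm38.p6, and each is the 250 bases before the start annotated there, written 5′ to 3′ on the strand of the gene. The gene coordinates given further below place the starts differently. For Srebf2, Insig1, Idi1, Lss and Cyp51 the start by those coordinates lies inside the window. Of the 8 genes 6 matched a window, all but Sqle and Fdft1. Capitals mark every match on either strand to TCACNNCA or to CCAAT, the reverse complement of which reads ATTGG.
Srebf2, chr15:82147019-82147268, plus strand: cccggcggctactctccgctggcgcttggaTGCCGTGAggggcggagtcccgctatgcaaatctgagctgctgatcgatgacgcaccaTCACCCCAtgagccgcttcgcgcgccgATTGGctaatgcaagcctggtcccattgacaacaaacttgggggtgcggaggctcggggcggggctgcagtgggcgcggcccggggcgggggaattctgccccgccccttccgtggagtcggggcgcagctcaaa
Insig1, chr5:28071162-28071411, plus strand: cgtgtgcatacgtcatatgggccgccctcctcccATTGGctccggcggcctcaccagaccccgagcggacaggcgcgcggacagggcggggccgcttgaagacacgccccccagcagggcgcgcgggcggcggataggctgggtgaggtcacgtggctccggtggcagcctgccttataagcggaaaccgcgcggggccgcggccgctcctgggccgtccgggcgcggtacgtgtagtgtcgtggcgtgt
Hmgcs1, chr13:119690101-119690350, plus strand: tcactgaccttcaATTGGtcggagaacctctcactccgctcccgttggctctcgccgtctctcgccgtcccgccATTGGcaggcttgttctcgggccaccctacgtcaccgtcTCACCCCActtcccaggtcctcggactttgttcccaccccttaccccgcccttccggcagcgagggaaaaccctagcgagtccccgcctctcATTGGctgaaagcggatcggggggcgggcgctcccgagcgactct
Idi1, chr13:8885356-8885605, plus strand: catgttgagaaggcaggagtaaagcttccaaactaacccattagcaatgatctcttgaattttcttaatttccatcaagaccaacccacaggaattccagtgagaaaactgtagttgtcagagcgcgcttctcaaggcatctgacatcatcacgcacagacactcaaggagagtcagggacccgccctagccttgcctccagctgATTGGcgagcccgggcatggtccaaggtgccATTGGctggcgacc
Cyp51, chr5:4104698-4104947, minus strand: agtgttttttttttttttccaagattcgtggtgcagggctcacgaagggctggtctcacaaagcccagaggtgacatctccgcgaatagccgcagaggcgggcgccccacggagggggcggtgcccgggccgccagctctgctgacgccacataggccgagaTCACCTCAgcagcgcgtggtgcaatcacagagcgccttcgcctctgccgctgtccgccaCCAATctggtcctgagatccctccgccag
The classical element TCACCCCA was found in the windows of Srebf2 and Hmgcs1, with its first base at -162 and -137 from the RefSeq start. It was present in 1.34% of 32851 promoter windows of the same length. The looser TCACNNCA, which includes the classical element and was chosen after these sequences had been seen, was found in Srebf2 (2 matches), Hmgcs1 and Cyp51, and in 11.4% of all windows. CCAAT was found in all 6 windows and in 33.9% of all windows. No match to TCACNNCA was found in the windows of Insig1, Idi1 or Lss, which says only that these letters are absent there. A match is a description of the letters and not a measured binding site.

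To compare the genes with each other, their levels were taken as TPM, a unit corrected for transcript length that sums to the same total in every library. In PBS, Srebf2 was the most abundant at 48.4 ± 1.43 TPM (SD, n = 3), followed by Hmgcs1 at 35.1 ± 1.67 and Insig1 at 30.9 ± 2.50. Fdft1 stood at 17.0 ± 0.467, Idi1 at 13.02 ± 0.932, Sqle at 12.95 ± 0.878, Cyp51 at 9.06 ± 0.462 and Lss at 5.88 ± 0.876 TPM. Libraries of neighbours in this order overlapped only for Idi1 and Sqle. After 4 h of LPS, Srebf2, Hmgcs1 and Insig1 kept the first 3 places, at 44.5 ± 0.610, 31.0 ± 1.47 and 27.0 ± 1.66 TPM. Idi1 came next at 17.2 ± 0.214 and then Cyp51 at 12.6 ± 1.16, overlapping Fdft1 at 12.5 ± 0.780, while Sqle stood at 9.41 ± 0.617 and Lss at 3.11 ± 1.36. On the TPM scale the levels of Srebf2, Hmgcs1 and Insig1 at LPS 4 h were thus below those in PBS, and those of Idi1 and Cyp51 above. Counts scaled by library totals, without a length correction, put the first 3 near PBS instead. Their log2 fold changes were then 0.11 for Srebf2, 0.0094 for Hmgcs1 and -0.0089 for Insig1. The tests and the values per library below use CPM, counts scaled to the TMM-adjusted library total, which do not correct for length and are compared only within a gene.

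The question of the study was how soon systemic inflammation changes the cerebral vessels, and for each gene the LPS groups were set against PBS. Srebf2 (chr15:82147181-82205379 in GRCm38, plus strand) encodes SREBP2 itself. It stood at 129, 134 and 129 CPM in PBS, 154, 156 and 155 at LPS 15 min, 154, 162 and 165 at LPS 30 min, and 229, 226 and 237 at LPS 4 h. Every LPS library was above every PBS library, and those of LPS 4 h were above all others. The log2 fold change against PBS was 0.24 (SE 0.0312) at LPS 15 min and 0.29 (SE 0.0314) at LPS 30 min, both short of the fold limit. At LPS 4 h Srebf2 rose by 0.82 (SE 0.0317, edgeR adjusted p = 7.63e-08).

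Insig1 (chr5:28071363-28078662, plus strand) encodes an endoplasmic reticulum protein that retains SCAP and is itself induced by SREBP2. Its level was 45.3, 48.5 and 44.1 CPM in PBS, 53.6, 52.0 and 50.1 at LPS 15 min, 61.6, 59.3 and 61.6 at LPS 30 min, and 75.8, 68.1 and 79.5 at LPS 4 h. No 2 of the 4 groups overlapped, and each later group was above the earlier ones. The log2 fold change was 0.18 (SE 0.0538) and 0.40 (SE 0.0537) at LPS 15 min and LPS 30 min, and 0.69 (SE 0.0552, edgeR adjusted p = 0.0206) at LPS 4 h. This last call lay close to the limit. It was lost without PBS replicate 1 (adjusted p = 0.0576 in edgeR), PBS replicate 3 (0.0898), LPS 4 h replicate 1 (0.0514) or LPS 4 h replicate 3 (0.138), and in DESeq2 with the same fold limit (0.161). Over all alternatives its adjusted p ran from 1.16e-10, against no change, to 1 under library totals.

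Hmgcs1 (chr13:119690379-119708260, plus strand) encodes the cytosolic HMG-CoA synthase, an early step on the way to mevalonate. The libraries held 62.7, 68.9 and 67.9 CPM in PBS, 63.5, 65.5 and 66.6 at LPS 15 min, 86.3, 84.0 and 88.7 at LPS 30 min, and 109, 113 and 105 at LPS 4 h. PBS and LPS 15 min overlapped, and the later groups stood above both. The log2 fold change was -0.03 (SE 0.0434) at LPS 15 min, 0.38 (SE 0.0430) for LPS 30 min and 0.71 (SE 0.0439, edgeR adjusted p = 0.00245) for LPS 4 h. Under limma on the authors' gene table the call at LPS 4 h was lost, with an adjusted p of 0.0663 at a pseudocount of 1 and a range over all alternatives from 1.09e-12, against no change, to 1 under library totals.

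Idi1 (chr13:8885501-8892451, plus strand) encodes an isopentenyl diphosphate isomerase, which makes the building block for longer isoprenoids. It had 21.5, 22.3 and 24.7 CPM in PBS, 25.3, 25.8 and 24.8 at LPS 15 min, 36.2, 32.1 and 32.8 at LPS 30 min, and 56.1, 57.7 and 53.8 at LPS 4 h. The groups did not overlap, although PBS and LPS 15 min lay close together. The log2 fold change was 0.15 (SE 0.0645) at LPS 15 min, 0.56 (SE 0.0636) at LPS 30 min and 1.29 (SE 0.0636) after 4 h, the last with an edgeR adjusted p of 9.98e-11.

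Fdft1 and Sqle act on either side of squalene: Fdft1 (chr14:63145150-63179578, minus strand) encodes squalene synthase, and Sqle (chr15:59315077-59331192, plus strand) squalene epoxidase, a rate-limiting oxygen-requiring step. Fdft1 stood at 27.8, 30.3 and 27.9 CPM in PBS, 29.5, 25.5 and 27.7 at LPS 15 min, 29.6, 34.1 and 33.7 at LPS 30 min, and 38.1, 38.0 and 43.4 at LPS 4 h. Sqle had 20.0, 20.9 and 23.1 CPM in PBS, 22.8, 20.8 and 22.2 at LPS 15 min, 27.5, 27.4 and 26.1 at LPS 30 min, and 27.3, 27.4 and 31.1 at LPS 4 h. For both genes the libraries of LPS 4 h lay above those of PBS, and those of LPS 15 min overlapped them. After 4 h of LPS the log2 fold change was 0.48 (SE 0.0736) for Fdft1 and 0.43 (SE 0.0743) for Sqle, both with an edgeR adjusted p of 1 against the fold limit. Exons of Fdft1 overlap those of the more abundant Ctsb on the other strand (mean counts 709 and 9126), and the library kit does not mark strand, so reads of the pair cannot be told apart with certainty.

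Cyp51 (chr5:4081145-4104746, minus strand) encodes lanosterol 14-alpha-demethylase, which acts just after the sterol rings are closed. It stood at 21.2, 21.8 and 20.5 CPM in PBS, 33.6, 31.0 and 32.2 at LPS 15 min, 33.9, 36.9 and 34.2 at LPS 30 min, and 50.8, 54.1 and 56.1 at LPS 4 h. At every time after LPS all of its libraries were well above those of PBS. The log2 fold change was 0.61 (SE 0.0597) at LPS 15 min, 0.73 (SE 0.0600) for LPS 30 min and 1.34 (SE 0.0604, edgeR adjusted p = 1.03e-11) at LPS 4 h. The edgeR adjusted p against the fold limit was 1 at LPS 15 min and 0.0599 at LPS 30 min, whereas against no change it was 2.02e-08 and 1.30e-09. Cyp51 overlaps Akap9 on the other strand (mean counts 752 and 1528), with the same limit as for Fdft1.

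**Figure D1:**
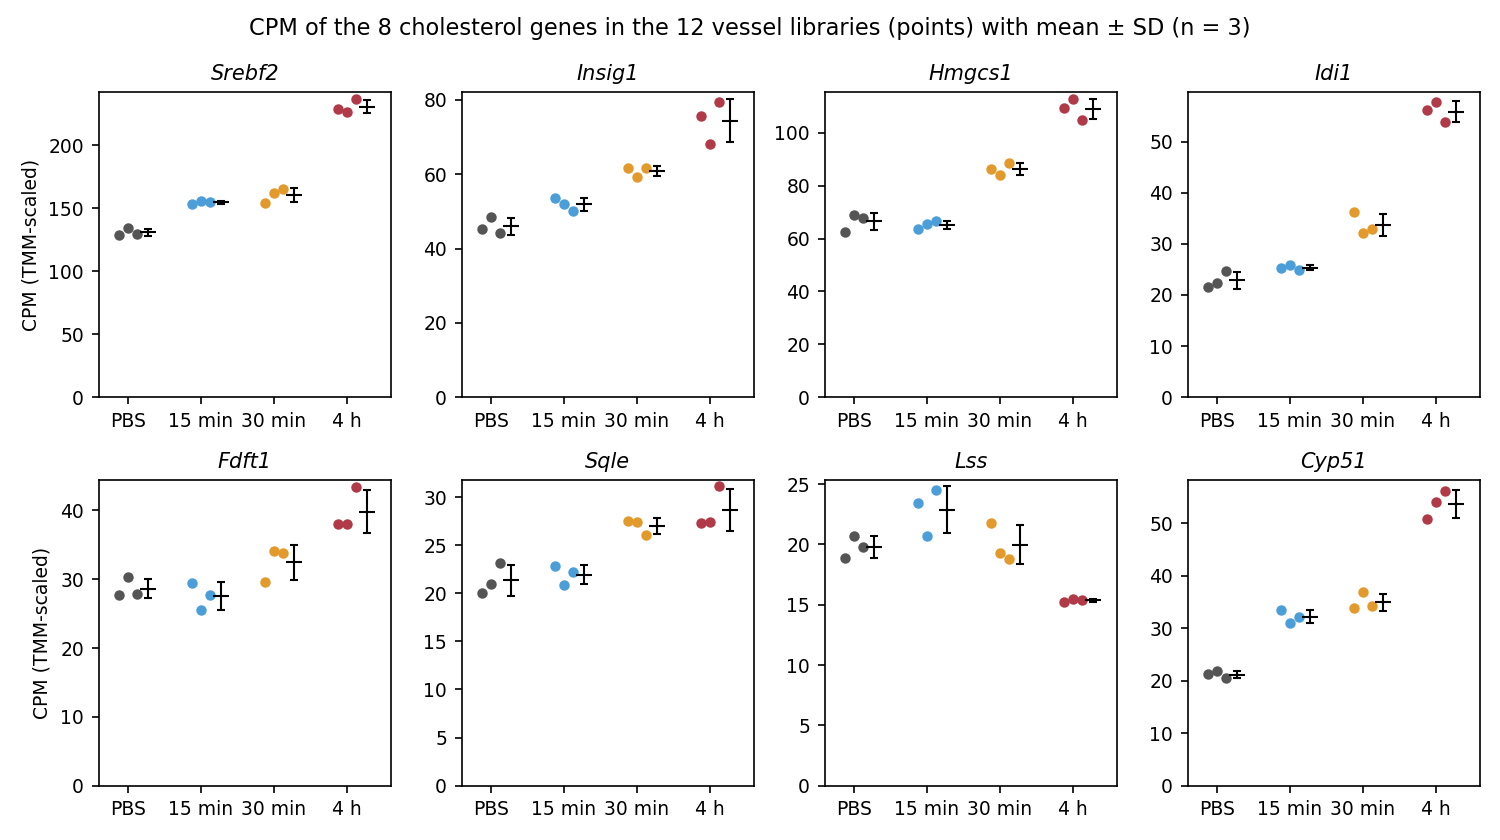
CPM of the 8 cholesterol genes on the y axis, by group on the x axis, with 1 point per library and the mean ± SD of 3 libraries beside them. Srebf2, Insig1 and Cyp51 lie above all PBS libraries from LPS 15 min on, with Cyp51 the farthest in proportion, Idi1 lies just above them at LPS 15 min and clearly from LPS 30 min on, Hmgcs1 and Sqle from LPS 30 min on, and Lss is lowest at LPS 4 h.

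Lss (chr10:76531588-76557138, plus strand) encodes lanosterol synthase, which closes the sterol rings. Its level was 18.9, 20.7 and 19.8 CPM in PBS, 23.4, 20.7 and 24.5 at LPS 15 min, 21.8, 19.3 and 18.8 at LPS 30 min, and 15.3, 15.5 and 15.4 at LPS 4 h. The libraries of LPS 4 h were below all others. The log2 fold change at LPS 4 h was -0.36 (SE 0.0861), with an edgeR adjusted p of 1 against the fold limit and 0.000700 against no change. Most of this RNA was assigned to transcripts that are not annotated as protein-coding. Transcripts annotated as protein-coding took 12.6% ± 10.9 (SD, n = 3) of the TPM of Lss in PBS, 14.5% ± 4.30 after 15 min of LPS, 24.7% ± 7.56 after 30 min and 15.2% ± 15.1 after 4 h. Transcripts with a retained intron took a mean of 87.4% in PBS and 65.7% at LPS 4 h. The second mean leans on 1 library, in which another noncoding transcript, Lss-202, took 57.2%. That transcript had a mean of 19.1% and a lowest value of 0% at LPS 4 h, so no general loss of retained-intron RNA is shown. In the other 7 genes protein-coding transcripts took between 81.6% (Srebf2) and 99.3% (Hmgcs1) of the TPM in PBS. Counts in the protein-coding transcripts of Lss were 58, 33 and 26 in PBS, 67, 50 and 102 at LPS 15 min, 64, 51 and 107 at LPS 30 min, and 25, 0 and 57 at LPS 4 h. The groups overlapped, and a fit on protein-coding transcripts alone, an alternative added after seeing the data, gave a log2 fold change of 0.46 at LPS 4 h in place of -0.36, with an edgeR adjusted p of 1. The direction of Lss was therefore not settled by these counts.

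**Figure D2:**
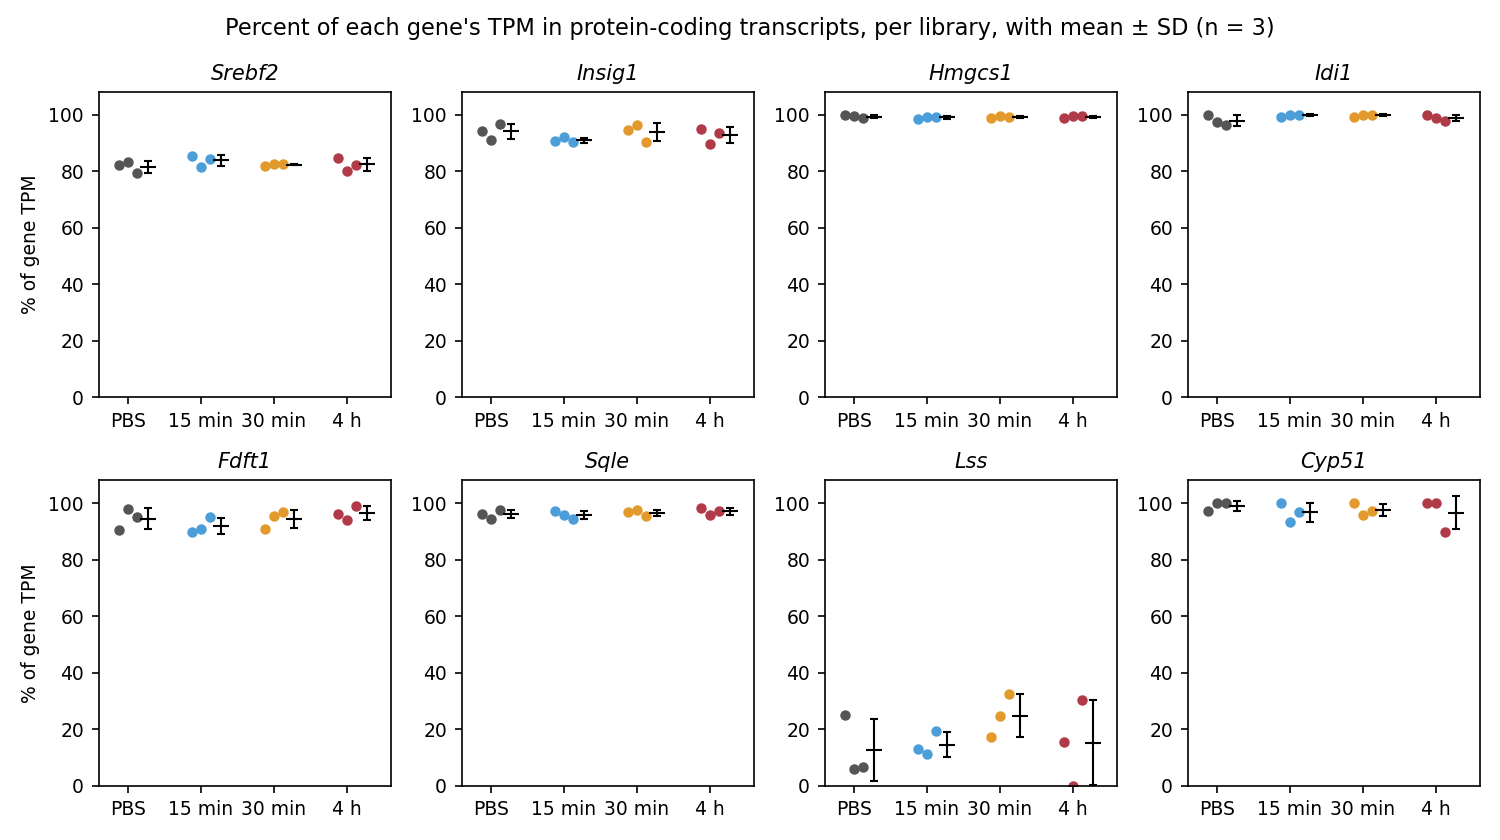
Percent of the TPM of each gene that falls in transcripts annotated as protein-coding (y axis) by group (x axis), with 1 point per library and the mean ± SD of 3 libraries. Lss lies between 0 and 32.4% in all 12 libraries, while the other 7 genes have group means of 81.6% or more.

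Across the 8 genes, 0 of the 8 genes passed the fold-limit test in edgeR at LPS 15 min, where 4.25% of all genes tested did. DESeq2 and limma also called 0, and 0 had an unadjusted p under 0.05. Against no change, 4 of the 8 passed as higher there (Srebf2, Insig1, Lss and Cyp51), beside 20.4% of all genes as higher and 38.6% in either direction. The libraries of 5 genes lay wholly above PBS, beside 25.2% of all genes, and the median log2 fold change of the 8 was 0.16 against -0.0021 over all genes. At LPS 30 min 0 of 8 passed the fold limit, beside 4.62% of all genes, with 1 (Cyp51) at an unadjusted p under 0.05 and 0 called by DESeq2 or limma, and 6 passed as higher against no change, beside 19.7% as higher and 36.9% in either direction. Those 6 were all but Fdft1 and Lss, they were also the 6 whose libraries lay wholly above PBS (23.7% of all genes), and the median of the 8 was 0.36 against -0.0102. At LPS 4 h 5 of 8 passed as higher and 0 as lower, where 33.0% of all genes passed in either direction and 19.1% as higher. Against no change all 8 passed, 7 as higher (34.9% of all genes) and Lss as lower (33.7%), and the median was 0.70 against -0.0098. The libraries of 7 genes lay wholly above PBS, beside 35.9% of all genes, and those of Lss wholly below, beside 35.0%. The 3 comparisons share the PBS libraries.

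Steps between the LPS groups were tested in the same way. From LPS 15 min to LPS 30 min 0 of the 8 genes passed the fold limit in edgeR, beside 4.76% of all genes, 0 had an unadjusted p under 0.05, and DESeq2 and limma called 0. Against no change 5 passed as higher (Insig1, Hmgcs1, Idi1, Fdft1 and Sqle), beside 19.2% of all genes, with Idi1 (0.41, SE 0.0632) and Hmgcs1 (0.41, SE 0.0432) the largest. Cyp51 moved by 0.12 (SE 0.0577, edgeR adjusted p = 0.125 against no change) in this step. From LPS 30 min to LPS 4 h Idi1 was the 1 gene of 8 that passed the fold limit, at 0.73 (SE 0.0622, edgeR adjusted p = 0.0123), beside 28.9% of all genes in either direction and 17.0% as higher. That call was lost without LPS 30 min replicate 2 (0.69, adjusted p = 0.0660 in edgeR) or LPS 4 h replicate 2 (0.70, 0.0507), without a filter on low counts (0.68, 0.0858) and in DESeq2 (0.75, 0.0850). Under library totals Idi1 was at 0.19 (edgeR adjusted p = 1), and Lss passed the fold limit as lower (-0.92, edgeR adjusted p = 0.000259). Of all 19150 genes 8915 passed in this step under library totals, 21.7% of these as higher. With TMM scaling Cyp51 was at 0.62 (SE 0.0584, edgeR adjusted p = 0.271) and Srebf2 at 0.52 (SE 0.0316, edgeR adjusted p = 1) in this step. Against no change 6 genes passed as higher, beside 31.9% of all genes, and Lss as lower, beside 33.3%.

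All 5 calls at LPS 4 h, and the direction of Insig1, Fdft1 and Sqle there, depended on the scaling. The mean TMM factor was 1.17 for PBS, and 1.15, 1.04 and 0.717 for the successive LPS times. Scaling by library totals alone moved the median of all genes downwards, by 0.0242 after 15 min of LPS, 0.165 after 30 min and 0.703 after 4 h. The 4 h calls among all 19150 genes went from 6315 to 10523, and the share of these calls that were higher from 57.96% to 18.2%. With that scaling the log2 fold change at LPS 4 h was 0.64 for Cyp51 (edgeR adjusted p = 0.0996) and 0.59 for Idi1 (0.331). Srebf2 stood at 0.11, Hmgcs1 at 0.0094 and Insig1 at -0.0089, so these 3 genes were near their PBS share of the library. Fdft1 was at -0.23, Sqle at -0.28 and Lss at -1.07, and Lss alone passed the fold limit, as lower (edgeR adjusted p = 2.65e-06). Relative to the median of all genes, which was -0.71 under that scaling, the values were 1.35 for Cyp51, 1.30 for Idi1, 0.83 for Srebf2, 0.72 for Hmgcs1, 0.70 for Insig1, 0.48 for Fdft1, 0.43 for Sqle and -0.36 for Lss. At LPS 15 min every one of the 8 genes kept its direction under either scaling, and at LPS 30 min all did but Lss (0.01 and -0.15).

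**Figure D3:**
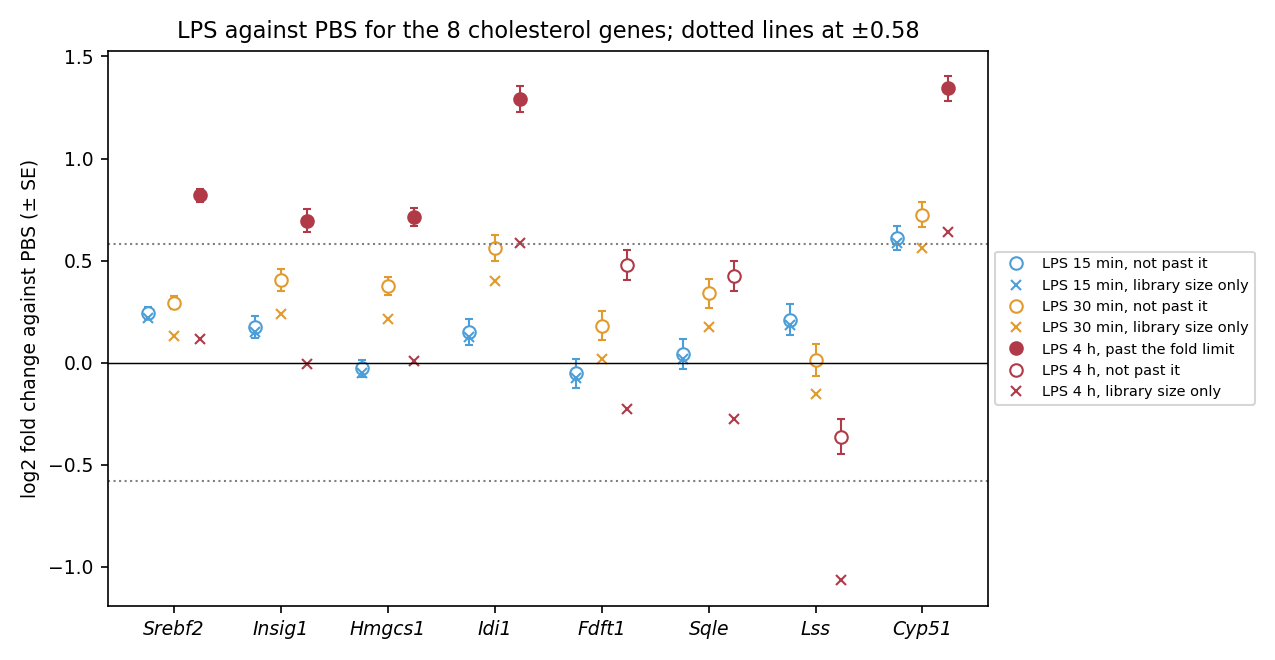
Log2 fold change against PBS (y axis) of the 8 genes (x axis) at the 3 LPS times, with circles for the TMM-scaled fit and its SE, filled where the gene passed the fold limit marked by dotted lines at ±0.58, and crosses for scaling by library total alone. At LPS 4 h the crosses lie about 0.703 below the circles, with Cyp51 and Idi1 well above 0 and Lss at -1.07.

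A measure that does not depend on the scaling is the share of each gene in the summed TPM of the 8, which was 172 ± 6.16 TPM in PBS and 191 ± 2.47, 181 ± 2.14 and 157 ± 2.01 TPM after 15 min, 30 min and 4 h of LPS (SD, n = 3). Idi1 took 7.15%, 7.22% and 8.33% of that sum in PBS and 11.002%, 11.2% and 10.7% after 4 h of LPS. Cyp51 took 5.51%, 5.19% and 5.08% in PBS, 7.32%, 7.31% and 7.20% at LPS 15 min, and then 7.51%, 7.80% and 8.73% at LPS 4 h. Both genes gained weight within the set without overlap between PBS and LPS 4 h. Fdft1 went from 10.2%, 9.61% and 9.78% to 7.63%, 7.73% and 8.36%, and Sqle from 7.25%, 7.04% and 8.31% to 5.83%, 5.76% and 6.33%, also without overlap. The shares within a library have a fixed sum, so a gain by some genes lowers the shares of others. A smaller share is therefore not a lower level, and with TMM scaling Fdft1 and Sqle were higher at LPS 4 h (0.48 and 0.43). Srebf2 had 28.2%, 27.9% and 28.3% in PBS, 28.3%, 30.1% and 29.9% after 15 min of LPS, 25.3%, 25.8% and 27.1% after 30 min and 28.5%, 28.1% and 28.3% after 4 h, so its weight was above PBS at the first time, below it at the next and overlapped it at the last. With 3 libraries against 3, an exact two-sided permutation test of any such share cannot go below p = 0.1. By these shares the 8 genes did not move in parallel, a description that was not tested.

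**Figure D4:**
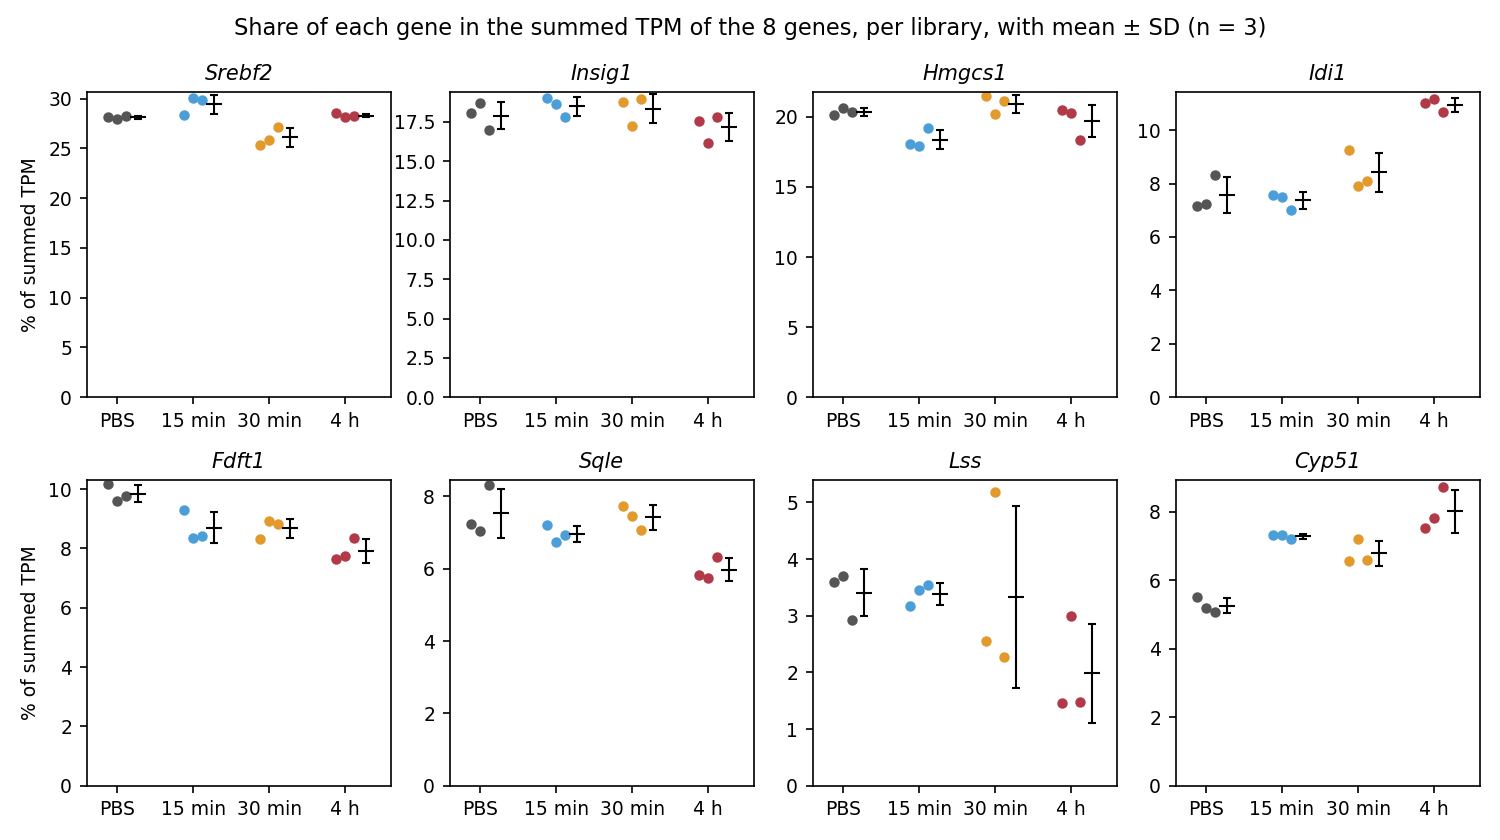
Share of each gene in the summed TPM of the 8 genes (y axis, percent) by group (x axis), with 1 point per library and the mean ± SD of 3 libraries. Idi1 and Cyp51 take a larger share at LPS 4 h than in PBS (10.95% against 7.57% and 8.01% against 5.26%), Fdft1 and Sqle a smaller one, and Srebf2 lies below PBS at LPS 30 min and overlaps it at LPS 4 h.

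The makeup of the vessel RNA moved along with these genes. In bulk RNA, fewer cells of a type and less RNA per cell cannot be told apart. The summed level of 7 brain endothelial markers ranged over the libraries from 9840 to 10110 CPM in PBS, from 10173 to 10221 after 15 min of LPS, from 10851 to 10917 after 30 min and from 6050 to 6108 after 4 h, when 5 of the 7 had fallen past the fold limit and 1 had risen. At LPS 15 min and LPS 30 min 6 of the 7 were lower against no change, with Cldn5 past the fold limit (-0.73 and -0.90), while Slc2a1 had risen (0.70 and 1.01) and carried the sum upwards. None of the 7 was at 0 in any group. The same held for every other marker list except that of neutrophils, so this check cannot identify the tissue as vessels. The 5 erythrocyte markers summed to 2317 to 2492 CPM in PBS, 3477 to 3618 after 15 min of LPS, 4437 to 4663 after 30 min and 6941 to 7306 after 4 h, with all 5 risen at the last time. The 4 neutrophil markers summed to 1.95 to 2.56 CPM in PBS, 0.678 to 1.36 after 15 min of LPS, 2.97 to 4.64 after 30 min and 158 to 165 after 4 h, when the 3 that were tested had risen. Ly6g was at 0 in every library of PBS and LPS 15 min. Astrocyte markers (7 genes) stood at 820 to 845 CPM in PBS, 633 to 683 after 15 min of LPS, 851 to 880 after 30 min and 1476 to 1539 after 4 h, with 3 risen. Gja1 made most of the gain at LPS 4 h (74.6 to 522 CPM), while Aldh1l1 (25.1 to 25.2) and Aldoc (104 to 105) hardly moved. Against no change 5 of the 7 were higher there and 0 lower. Aqp4 ranged from 5.87 to 26.4 CPM within LPS 4 h. At LPS 15 min Gfap had fallen past the limit (-1.20). After 4 h, when 33.0% of all genes passed the limit, 0 of 5 pericyte, 0 of 4 smooth muscle and 0 of 5 neuron markers did. Against no change 5 neuron markers were lower, and 3 smooth muscle markers were lower and 1 higher. By the limit 3 of 7 oligodendrocyte, 2 of 5 microglia and 2 of 4 fibroblast markers had fallen. The oligodendrocyte markers were mixed, with 5 lower and 2 higher against no change. The 2 were Mbp (183 to 264 CPM) and Mobp (57.9 to 91.0 CPM). At LPS 15 min, when 4.25% of all genes passed, 3 of 4 smooth muscle markers had fallen and 2 of 5 neuron markers had risen. The part of these shifts in the levels of the 8 cholesterol genes was not tested.

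The other genes of the pathway were taken from 5 lists with 57 genes, all of which were tested. The share of all genes passing the fold limit at LPS 4 h was 33.0%, and directions of list genes below are those of the TMM scaling. Of 15 other cholesterol synthesis enzymes, 4 rose, 3 fell and 8 did not pass, with a median log2 fold change of -0.0845 against -0.0098 over all genes. Acat2, the thiolase that joins acetyl-CoA units at the start of the pathway, rose from 14.2 ± 1.43 to 57.7 ± 0.383 CPM (2.03, SE 0.0774, edgeR adjusted p = 1.18e-14). Hsd17b7, a 3-ketosteroid reductase, rose by 1.04 (SE 0.125) and Msmo1, which acts on the C4 methyl groups of the sterol ring, by 0.81 (SE 0.0628), the latter named after its value had been seen. Dhcr7 and Ebp, which encode enzymes of the late steps of synthesis, were among those that fell. Dhcr7 went from 19.0 ± 0.0956 to 8.44 ± 0.563 CPM (-1.17, SE 0.0969, edgeR adjusted p = 1.90e-06), and the sterol isomerase gene Ebp from 22.4 ± 0.263 to 12.99 ± 1.04 CPM (-0.78, SE 0.0791). Under library totals alone Acat2 stood at 1.32 and Hsd17b7 and Msmo1 at 0.34 and 0.11 without a call, while Dhcr7 and Ebp fell further. Earlier, at LPS 15 min and LPS 30 min, 0 of the 15 passed the fold limit in edgeR (0 and 1 at an unadjusted p under 0.05), and 2 and 4 passed against no change in either direction, beside 38.6% and 36.9% of all genes.

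Among 10 other genes of SREBP control, 2 rose at LPS 4 h and 0 fell by the edgeR fold-limit test, and 4 were higher and 3 lower against no change, beside 34.9% and 33.7% of all genes. Both genes that rose encode membrane ubiquitin ligases of the endoplasmic reticulum. Rnf139 went from 33.9 ± 3.54 to 86.6 ± 4.90 CPM (1.35, SE 0.0669, edgeR adjusted p = 5.35e-11) and Rnf145 from 55.1 ± 2.03 to 127 ± 4.13 CPM (1.21, SE 0.0451, edgeR adjusted p = 1.82e-12). Scaled by totals alone they stood at 0.65 and 0.50, neither past the limit. The median of the 10 was 0.03. At both earlier times 0 of the 10 passed the fold limit in edgeR, with 1 and 0 at an unadjusted p under 0.05 and 5 passing against no change each time, again beside 38.6% and 36.9% of all genes.

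Uptake and intracellular transport of cholesterol were represented by 11 genes, of which 1 rose and 2 fell at LPS 4 h, with a median of -0.16. Mylip, whose product marks lipoprotein receptors for degradation, was the one that rose, from 40.8 ± 1.15 to 73.5 ± 5.37 CPM (0.85, SE 0.0539, edgeR adjusted p = 2.44e-05), a value of 0.14 without a call under library totals. Lrp8, a receptor for apolipoprotein E and reelin, fell from 123 ± 2.67 to 42.0 ± 5.36 CPM (-1.56, SE 0.0575, edgeR adjusted p = 4.60e-14). Scarb1, the receptor for high-density lipoprotein, fell from 129 ± 4.17 to 59.2 ± 5.02 CPM (-1.13, SE 0.0526, edgeR adjusted p = 3.46e-10). Both were lower under either scaling. At the earlier times 0 of 11 passed the fold limit in edgeR, 0 had an unadjusted p under 0.05, and 6 and 5 passed against no change, beside the same 38.6% and 36.9%.

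Sterol efflux, esterification and oxysterol genes with the LXR receptors formed a list of 10, of which 4 rose and 1 fell at LPS 4 h, with a median of 0.13. Ch25h, which makes 25-hydroxycholesterol, a sterol that blocks SREBP processing, stood at 6.14, 7.63 and 8.78 CPM in PBS, 53.6, 55.5 and 52.5 after 15 min of LPS, 418, 432 and 404 after 30 min, and 1244, 1225 and 1275 after 4 h. Its groups were far apart from LPS 15 min on, with log2 fold changes of 2.84 (SE 0.0640), 5.80 (SE 0.0561) and 7.38 (SE 0.0561) and an edgeR adjusted p of 2.18e-18 at LPS 15 min. Cyp7b1, which breaks down that oxysterol, rose by 2.28 (SE 0.0916) at LPS 4 h, and the cholesterol exporter gene Abca1 by 2.13 (SE 0.0309), from 80.2 ± 1.28 to 351 ± 2.70 CPM. Nr1h2, which encodes the receptor LXR-beta, passed at 0.65 (SE 0.0360, edgeR adjusted p = 0.0292), a value of -0.0550 under library totals. Cyp27a1, a sterol 27-hydroxylase, fell by 1.64 (SE 0.157), from 14.6 ± 0.396 to 4.67 ± 1.501 CPM. Cyp46a1, the neuronal cholesterol 24-hydroxylase, passed only at LPS 15 min among the comparisons with PBS, at 51.6 ± 2.20 CPM in PBS and 88.9 ± 3.92 at LPS 15 min (0.78, SE 0.0525, edgeR adjusted p = 0.00275). In those LPS 15 min libraries the 5 neuron markers summed to 480 to 491 CPM, against 307 to 319 in PBS, and the part of this in the value of Cyp46a1 was not tested.

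Fatty acid synthesis, which the related factor SREBP1 governs, was covered by 11 genes, of which 2 rose and 0 fell at LPS 4 h by the edgeR fold-limit test, and 5 were higher and 5 lower against no change, beside 34.9% and 33.7% of all genes. Elovl6, a fatty acid elongase, went from 16.0 ± 2.13 to 70.5 ± 4.61 CPM (2.14, SE 0.0820, edgeR adjusted p = 8.83e-15) and was higher under either scaling. Me1, the malic enzyme that supplies NADPH, went from 19.4 ± 2.17 to 32.8 ± 0.688 CPM (0.76, SE 0.0851, edgeR adjusted p = 0.0216), a value of 0.0513 under library totals. The median of the 11 was 0.03. At LPS 15 min and LPS 30 min 0 of the 11 passed the fold limit in edgeR or had an unadjusted p under 0.05, and 3 and 5 passed against no change, beside the same 38.6% and 36.9%.

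**Figure D5:**
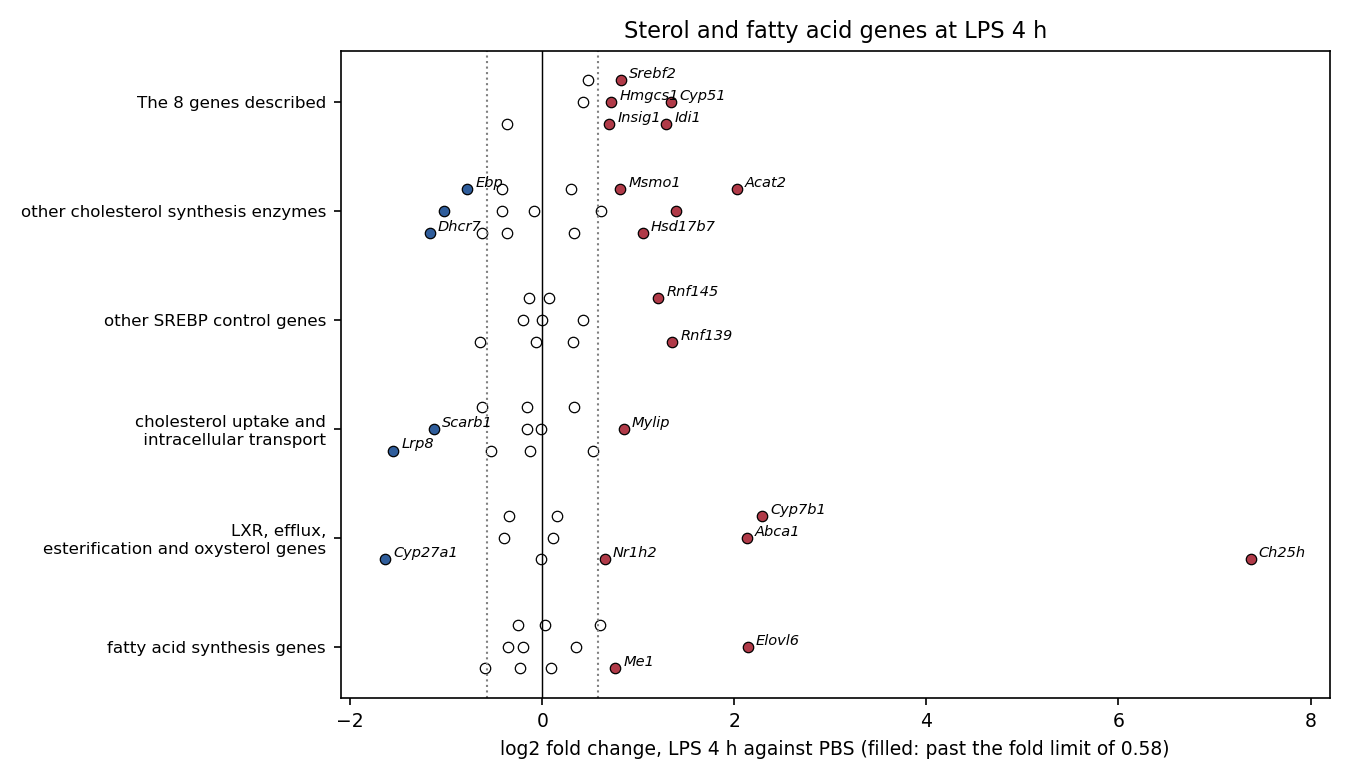
Log2 fold change at LPS 4 h against PBS (x axis) for the 8 genes and for 57 genes in 5 lists (rows), with 1 circle per gene, filled where the gene passed the fold limit of 0.58 marked by dotted lines, red for higher and blue for lower. Of the 8 genes 5 are filled on the right, the other enzymes are filled on both sides, and Ch25h stands apart at 7.38.

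The genes whose course over the 12 libraries was most like the mean of the 8 were found by the root mean square difference of log2 CPM, each centred on PBS, among 10893 genes of at least 10 CPM. Leaving out the 8 genes and the other lists, they were Cct8 (0.0367), Mlec (0.0482), Hnrnpa2b1 (0.0494), Dock9 (0.0624) and Akirin1 (0.0643). Cct8, a subunit of the TRiC chaperonin, had log2 fold changes of 0.14, 0.34 and 0.68 at the successive LPS times. Among the 8 genes themselves Insig1 was closest to their mean (0.0579, which lies between Hnrnpa2b1 and Dock9), followed by Srebf2 (0.0955) and Hmgcs1 (0.110), and Idi1 was farther away (0.325).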

How the data were processed

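RNA of cerebral vessels was sequenced from 12 libraries (SMART-Seq v4, Nextera XT, NovaSeq, paired ends). The authors estimated transcript abundance with Salmon 1.2.1 on GRCm38.p6, summed it to genes with tximport, and used DESeq2 to normalize the gene counts. The deposited expected counts are the fragments Salmon assigned to each of 140948 transcripts, not normalized. The deposited TPM values correct those fragments, as the authors' Salmon run wrote them, for transcript length and library total. The deposited gene table of 54331 genes holds a normalized signal, counts divided by size and transcript length factors.

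Transcripts were joined by identifier to GENCODE M21 (139852 joined, and 0.482% to 0.850% of fragments were left out), summed to 54119 genes and rounded. In edgeR 4.0.16 under R 4.3.3, filterByExpr (count 10, total 15, share 0.7) kept 19150 genes, TMM factors were used, and all 12 libraries entered 1 quasi-likelihood fit. glmTreat tested each gene against a change of at most 0.58 on the log2 scale, and p-values were adjusted by Benjamini-Hochberg over all genes tested, with a threshold of 0.05. "Against no change" is the quasi-likelihood test of the same fit without the limit. Each SE was obtained as |log2 fold change| over the root of the F statistic of that fit. A gene was said to rise or fall where it passed the fold limit. CPM is the count scaled by library total and TMM factor. The common biological coefficient of variation was 0.0524. The fit was tested on simulated data. Tables and plots were made in Python 3.11.15 with pandas 2.3.3, numpy 2.4.6 and matplotlib 3.10.9.

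Groups came from the sample records, and libraries are separate pools of mice. Library numbers are shared by the groups without a stated pairing. The 8 genes and the 5 pathway and 10 marker lists were chosen with earlier results of these data known. From each pathway list and each comparison with PBS, the rule named up to 3 called genes with the largest rise and up to 3 with the largest fall. Some genes that the rule names are not reported here. The 5 genes with the most similar course were also named. Alternatives were RLE factors, library size only, no filter, no fold limit, a transcript length offset, a block for the library number, only the groups compared, DESeq2 1.42.0, limma 3.58.1 on the gene table (pseudocounts 1 and 10), leaving out each library, and, added after seeing the data, protein-coding transcripts only.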

Additional observations from a re-analysis of the deposited data

Results flagged for a closer look

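Idi1 was the 1 gene of the 8 that passed the edgeR test against the 1.5-fold limit between consecutive LPS times. It passed from LPS 30 min to LPS 4 h, where 28.9% of all genes did. Against no change 5 of the 8 passed from LPS 15 min to LPS 30 min, all higher, beside 19.2% of all genes as higher. From LPS 30 min to LPS 4 h 7 passed, beside 31.9% of all genes as higher and 33.3% as lower. The log2 fold change of Idi1 from LPS 30 min to LPS 4 h was 0.73 (SE 0.0622, edgeR fold-limit test, adjusted p = 0.0123), and its 3 libraries of LPS 4 h (53.8 to 57.7 CPM) all lay above those of LPS 30 min (32.1 to 36.2 CPM). Scaled by library totals alone the value was 0.19 without a call. The edgeR adjusted p was 0.0660 without LPS 30 min replicate 2, 0.0507 without LPS 4 h replicate 2 and 0.0858 without a filter on low counts, and the adjusted p in DESeq2 was 0.0850.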

How the results depend on the processing

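Of 440 results under other settings 380 kept their direction and side of the threshold, 15 lost a call, 26 gained one and 19 turned direction. Of 240 with a library left out these numbers were 231, 6, 0 and 3. A result that turned direction was counted only as such. The lost call of Insig1 at LPS 4 h under library totals is therefore among the 19 and not the 15. The test against no change called 4 of the 8 genes at LPS 15 min, 6 at LPS 30 min, 8 at LPS 4 h, 5 from LPS 15 min to LPS 30 min and 7 from LPS 30 min to LPS 4 h, in place of 0, 0, 5, 0 and 1. Of all genes it called 38.6% at LPS 15 min and 36.9% at LPS 30 min. At LPS 4 h it called 34.9% as higher and 33.7% as lower. From LPS 15 min to LPS 30 min 19.2% were called as higher, and in the last step 31.9% as higher and 33.3% as lower. At LPS 4 h library totals alone called 1, beside 10523 of all 19150 genes, and limma called 3 at either pseudocount. From LPS 30 min to LPS 4 h, 0 were called without a filter and in DESeq2, and 0 to 1 with a library left out (0 without LPS 30 min replicate 2 or LPS 4 h replicate 2). The call of Insig1 at LPS 4 h was also lost without a filter (edgeR adjusted p = 0.146), with the length offset (0.0556) and with only the groups compared (0.0871). The causes were not tested, beyond the shift of the median that library totals bring.

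Under library totals the direction turned at LPS 4 h for Insig1 (-0.0089), Fdft1 (-0.23) and Sqle (-0.28), at LPS 30 min for Lss (-0.15), from LPS 15 min to LPS 30 min for Srebf2 (-0.0897) and Cyp51 (-0.0247), and from LPS 30 min to LPS 4 h for Srebf2 (-0.0142), Insig1 (-0.25), Hmgcs1 (-0.20), Fdft1 (-0.24) and Sqle (-0.45). Lss at LPS 30 min was -0.00013 with RLE factors, -9.51e-05 in DESeq2, and -0.0545 to 0.0552 with a library left out, below 0 without PBS replicate 1 (-0.0207) or LPS 30 min replicate 1. From LPS 15 min to LPS 30 min Lss was 0.16 with the length offset, 0.0981 and 0.0978 in limma at pseudocounts 1 and 10, and 0.21 on protein-coding transcripts, and at LPS 4 h 0.46 on the latter. At LPS 15 min Hmgcs1 was 0.0045 with the length offset and Sqle -0.0013 without PBS replicate 1 (its range was -0.0013 to 0.10 with a library left out).

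With the library number as a replicate block, 5 genes were called at LPS 4 h, 1 from LPS 30 min to LPS 4 h and 0 in the other comparisons, so the block changed no count. Over 18 comparisons, same-numbered libraries had deviations from their group means that correlated at -0.11 to 0.101, which gave no ground to pair them. Depth limits Lss most, with at most 107 fragments in protein-coding transcripts of any library.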
